A study of Mus musculus with 20 samples.

Results

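The glucocorticoid receptor Nr3c1 and 6 genes that act with it or respond to it (Fkbp5, Tsc22d3, Sgk1, Errfi1, Zbtb16 and Hsd11b1) were examined in mouse embryonic fibroblasts that had been kept for 24 hours in medium with mouse serum. They were found through the RefSeq accession that the scanner files give for each probe: 6 of the 7 genes had a probe, 12 probes in all, among 17178 named genes on the array, and Zbtb16 was not analysed here. Nr3c1 had 4 probes, Fkbp5 had 3, Tsc22d3 had 2, and Sgk1, Errfi1 and Hsd11b1 had 1 each. Each of the 12 probes was well above background on all 20 arrays, so that none was lost to the filter on dim probes.

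The serum came from female C3H/HeN mice, an inbred strain. The 4 groups of 5 arrays were control serum of a 10-day set (non-irradiated, 0 Gy), serum of mice given 4 Gy (10-day set), control serum of a 20-day set (0 Gy) and serum of mice given 8 Gy (20-day set). The irradiation regime is written as L/MDR and not expanded, the age of the mice and the strain of the fibroblasts are not given in the sources used here, and dose and days change together between the sets. Whether the 5 arrays of a group stand for 5 cultures or 5 serum donors is not stated, and all p-values therefore rest on a spread between arrays that may be technical.

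Glucocorticoids are adrenal steroid hormones, and corticosterone is the main one in mice. Without hormone the receptor sits in the cytoplasm in a complex of heat shock chaperones that also holds the co-chaperone Fkbp5, which lowers hormone binding. With hormone it moves to the nucleus and binds a palindromic response element, raising genes such as Fkbp5 itself, Tsc22d3, Sgk1, Errfi1 and Zbtb16, and holding down many inflammatory genes. Fibroblasts are a classical target cell and also carry Hsd11b1, the enzyme that turns the inactive keto form of the hormone back into the active one. Serum carries the animal's own hormone, and the comparisons address whether these genes differ with the serum added. No steroid was measured.

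Promoter windows show what the target genes do and do not share next to their starts. RefSeq (GRCm38.p6) gave 13 windows of the 250 bases before a transcription start for 5 of the genes. The full palindrome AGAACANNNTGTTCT, which reads the same on both strands, was found in 1 of these 13 windows, start 5 of Sgk1, and in 3 of all 32851 windows (0.00913%), the other two being those of Acnat2 and Gm35041. A looser core, GNACANNNTGTNC, also a palindrome and overlapping the full one, was in the same Sgk1 window and in 127 of all windows (0.387%). A single arm of the palindrome, AGAACA or TGTTCT, which overlaps the full element, was in 4 of the 13 windows (of Sgk1 and Tsc22d3) and in 5284 of all windows (16.1%). The windows are printed for Sgk1, the 1 with the full element, for Tsc22d3 with a single arm and for Fkbp5 with none, as these genes differ in what follows. The capitals mark the matches. The Sgk1 window is chr10:21993640-21993889 on the + strand, the Tsc22d3 window chrX:140600523-140600772 on the - strand and the Fkbp5 window chr17:28486150-28486399 on the - strand. A match is a description of letters, not a measured binding site, and bases outside these windows were not searched.
Sgk1, start 5: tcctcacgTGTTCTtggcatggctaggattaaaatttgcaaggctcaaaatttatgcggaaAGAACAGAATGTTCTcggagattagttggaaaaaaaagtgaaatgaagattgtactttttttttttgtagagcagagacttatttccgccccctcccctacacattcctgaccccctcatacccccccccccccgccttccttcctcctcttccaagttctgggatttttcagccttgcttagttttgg
Tsc22d3, start 2: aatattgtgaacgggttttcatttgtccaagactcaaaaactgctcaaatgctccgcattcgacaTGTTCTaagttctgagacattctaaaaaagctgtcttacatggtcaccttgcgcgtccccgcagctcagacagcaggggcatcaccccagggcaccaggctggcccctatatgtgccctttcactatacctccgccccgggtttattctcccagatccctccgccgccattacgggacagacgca
Fkbp5: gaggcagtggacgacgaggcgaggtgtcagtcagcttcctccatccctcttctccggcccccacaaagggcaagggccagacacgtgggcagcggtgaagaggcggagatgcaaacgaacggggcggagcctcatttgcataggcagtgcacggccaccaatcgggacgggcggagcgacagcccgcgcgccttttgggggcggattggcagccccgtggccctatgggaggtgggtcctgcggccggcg

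Levels are given as log2 signal minus the array's 75th percentile of it, so that 0 is the 75th percentile of that array, and differences between groups are log2 changes of it. Changes were tested with limma in 1 fit of the 4 groups, with Benjamini-Hochberg adjustment over all genes tested and a threshold of 0.05, and each gene was represented by its brightest probe. Each probe without a gene symbol counted as a gene of its own, so shares of all genes include such probes beside 12905 named genes. The comparisons share groups and are not independent of each other. Scanned spots numbered 43379 per array, and 56.8% to 67.2% of probes per array were well above background. All 20 fibroblast markers had a probe well above background on every array. Markers of macrophages were higher in the 20-day cultures. The summed level of 22 tested macrophage and myeloid markers lay between 2.13 and 2.97 on the 10 arrays of the 10-day set. On those of the 20-day set it lay between 6.91 and 7.46. Of 23 such markers with a probe, 20 were well above background on all arrays of every group. Spi1, a transcription factor of myeloid cells, was the 1 well above background on no 10-day array, and it was so on all 20-day arrays. The arrays lay on 7 slides. Slide 2 held 1 control and 2 4 Gy arrays of the 10-day set, and every other slide held 1 group. In the 20-day set serum and slide therefore cannot be told apart, and neither can set and slide.

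The receptor Nr3c1 and its target Tsc22d3 were lower with 8 Gy serum than with the control serum of the 20-day set, 1.40-fold and 1.71-fold. By the brightest probe all 5 arrays of 8 Gy serum lay below all 5 control arrays for both genes. Over all genes tested the groups did not overlap for 28.1%. The groups overlapped for the Nr3c1 probe A_52_P254174 and the Tsc22d3 probe A_52_P600518. Fkbp5, Sgk1, Errfi1 and Hsd11b1 did not pass the test there. None (0) of the 6 genes passed the test with 4 Gy serum. Between the sets Fkbp5 was lower in the 20-day cultures, 2.00-fold with control serum and 1.89-fold with irradiated serum, while Hsd11b1 was higher there, 1.79-fold and 2.15-fold. The Fkbp5 probe A_52_P481493 was higher in the 20-day cultures (log2 change 0.53 with control and 0.63 with irradiated serum). Of the 6 genes, 2 passed the test with 8 Gy serum, where 45.9% of all genes tested did, and 0 passed with 4 Gy serum, where 6.04% of all genes did. The share of members that passed with 8 Gy serum lies below that of all genes. Markers of other cells moved in the same comparison: of 11 tested adipocyte markers 2 rose and 5 fell (median log2 change -0.41; summed level 5.33 to 6.41 with control and 5.32 to 5.53 with 8 Gy serum), of 8 endothelial markers 0 rose and 4 fell (0.14 to 0.65 and -0.07 to 0.16), and of 20 fibroblast markers 4 rose and 3 fell (10.3 to 10.6 and 10.4 to 10.5). After quantile normalisation 10 fibroblast markers rose and 0 fell, and after normexp correction 0 endothelial markers passed. Their part in the changes with 8 Gy serum was not tested.

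**Figure D1:**
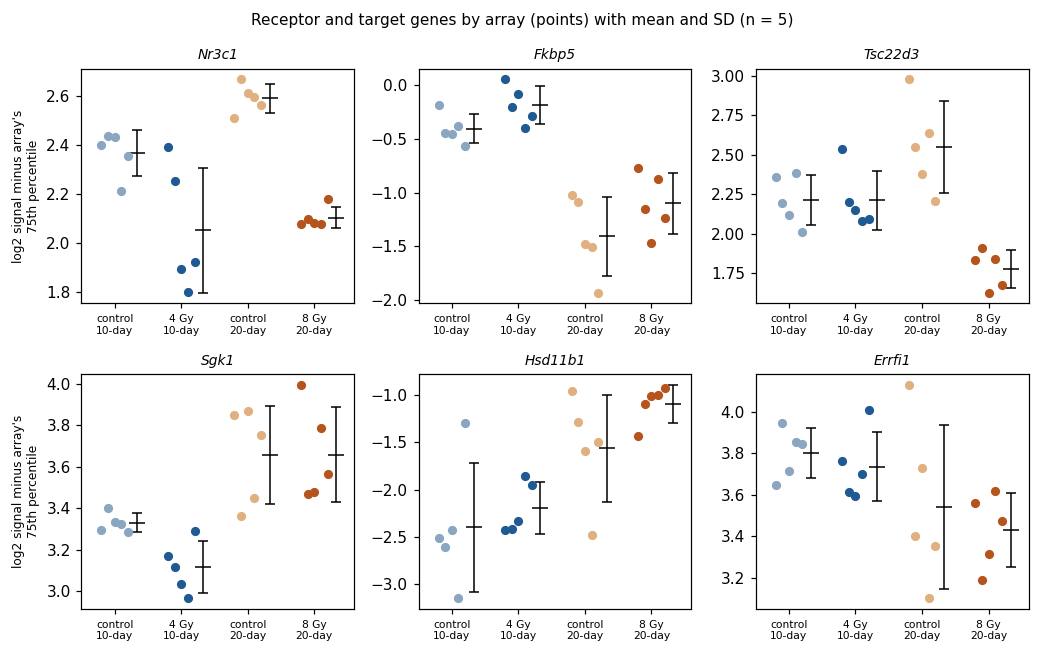
Level of the 6 genes by their brightest probes on each array (points, log2 signal minus the array's 75th percentile, a separate vertical scale per gene) in the 4 serum groups, with the mean and SD of 5 arrays beside them. Tsc22d3 and Nr3c1 lie lower with 8 Gy serum than with the control serum of the 20-day set without overlap, and Fkbp5 lies lower on all 20-day arrays than on all 10-day arrays.

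Nr3c1 encodes the receptor itself, and the signal of its brightest probe (A_52_P138090) lay above the 75th percentile on every array. Its level was 2.40, 2.44, 2.43, 2.21 and 2.36 on the 5 arrays with control serum of the 10-day set. In the 4 Gy group it was 2.39, 2.25, 1.89, 1.80 and 1.92. The first 2 of these 4 Gy arrays lay within the control range and on the slide they shared with a control array, while the other 3 lay below every control array and on a slide of their own.

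In the 20-day set the level of Nr3c1 was 2.51, 2.67, 2.61, 2.60 and 2.57 with control serum. In the 8 Gy group it was 2.08, 2.10, 2.08, 2.08 and 2.18. These groups did not overlap, and the log2 change of -0.49 (SE 0.094) passed the test (limma, adjusted p = 0.000358). With slide as a random block it still passed (adjusted p = 0.00387), but no slide held both groups. Serum and slide therefore cannot be told apart in this comparison.

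In the 10-day set the log2 change of Nr3c1 was -0.32 (SE 0.094) with an adjusted p of 0.0516 from limma. Within the shared slide the difference was -0.03, from 2 4 Gy arrays and 1 control array, and the 4 Gy arrays of slide 3 lay 0.45 below those of slide 2 (difference -0.45). Without slide 2 the change was -0.50 (adjusted p = 0.000221). That fit sets control arrays of slide 1 against 4 Gy arrays of slide 3, so serum and slide cannot be told apart in it. The change also passed scaled to the array median (-0.39, adjusted p = 0.0407), without the first 4 Gy array (-0.40, adjusted p = 0.00610) and without the second (-0.37, adjusted p = 0.0205). With slide as a random block the change was -0.23 (adjusted p = 0.569). The response did not differ detectably between the sets for this probe (difference -0.17, adjusted p = 0.334; 95% interval -0.45 to 0.11).

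All 4 probes of Nr3c1 were lower with 8 Gy serum, and with 4 Gy serum their signs differed. In the fit over all probes the log2 changes with 8 Gy serum were -0.49, -0.23, -0.37 and -0.63 for A_52_P138090, A_52_P63106, A_52_P254174 and A_51_P355693, and each passed the test (limma, adjusted p between 3.42e-05 and 0.0215). In the 10-day set they were -0.32, -0.07, -0.14 and 0.09, and none passed. For A_51_P355693 alone the difference between the responses passed the test (-0.72, adjusted p = 0.000530). Of all 12 probes of the 6 genes, 7 passed with 8 Gy serum (1 higher, 6 lower), where 47.9% of all probes tested did, and 0 passed with 4 Gy serum, where 5.35% did.

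**Figure D2:**
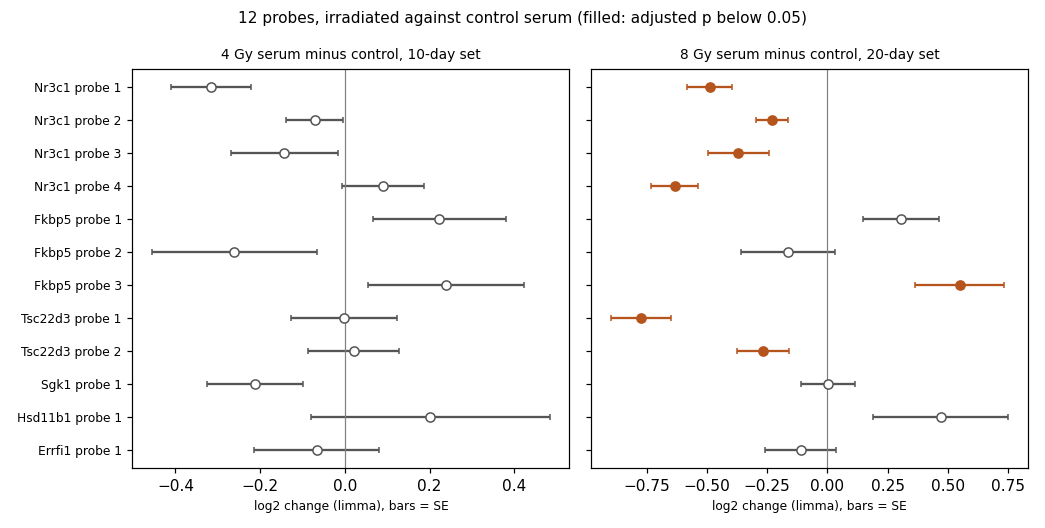
Log2 change of each of the 12 probes with irradiated against control serum (horizontal axis, with the standard error of the limma fit; 5 arrays per group), the 10-day set on the left and the 20-day set on the right, with probes of a gene numbered by falling mean signal. Filled points have an adjusted p below 0.05: none on the left, and on the right all 4 of Nr3c1, both of Tsc22d3 and the third of Fkbp5.

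Between the sets the Nr3c1 probes went apart. With control serum the brightest was 0.22 higher in the 20-day cultures (adjusted p = 0.0426), while A_52_P63106 was lower (-0.46, adjusted p = 6.85e-06). The small rise of the brightest probe was -0.031 after quantile normalisation and -0.012 after cyclic loess, and 7 of the 10 single arrays ended its call when left out (adjusted p 0.0553 to 0.110). By its brightest probe the order of levels was control serum of the 20-day set, control serum of the 10-day set, 8 Gy serum and 4 Gy serum. The difference of the last pair did not pass the test (irradiated serum, 20-day against 10-day set: 0.05, adjusted p = 0.659).

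Fkbp5 is the co-chaperone and one of the most used readouts of hormone action. By its brightest probe it separated the sets and passed the test with neither irradiated serum in the main fit. Its level was -0.19, -0.45, -0.45, -0.38 and -0.56 with control serum of the 10-day set. For the 4 Gy arrays it was 0.05, -0.20, -0.08, -0.40 and -0.29. The ranges overlapped, although 4 of the 5 4 Gy arrays lay above all but the highest control array, and the log2 change of 0.22 (SE 0.16, 95% interval -0.11 to 0.55) did not pass the test (limma, adjusted p = 0.440).

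On the control arrays of the 20-day set the level of Fkbp5 was -1.03, -1.09, -1.47, -1.51 and -1.93. For the 8 Gy arrays it was -0.77, -1.15, -1.47, -0.87 and -1.24. Here too the groups overlapped, and the change of 0.31 (SE 0.16, 95% interval -0.02 to 0.63) did not pass (limma, adjusted p = 0.120). It passed after normexp background correction (0.50, adjusted p = 0.00610) and without the first control array of the 20-day set (0.40, adjusted p = 0.0425). The probe A_52_P337899 was higher with 8 Gy serum in the fit over all probes (0.55, adjusted p = 0.0196), and A_52_P481493 was at -0.16 (adjusted p = 0.507).

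By the brightest probe all 10 arrays of the 20-day set lay below all 10 of the 10-day set for Fkbp5. The log2 change between the control groups was -1.00 (SE 0.16, adjusted p = 1.56e-05) and between the irradiated groups -0.92 (adjusted p = 6.51e-05), and both passed with slide as a random block. From the highest mean down, the groups ranked 4 Gy serum, control serum of the 10-day set, 8 Gy serum and control serum of the 20-day set. Within a set the difference did not pass the test by the brightest probe. The scans of the 2 sets were made on different days, so that set and scan day cannot be told apart. In such bulk samples fewer cells of a type and less RNA per cell cannot be told apart either, and the macrophage markers (22 of 22 tested, median log2 change 4.08 between the control groups) rose with the set: their part in this and every other difference between the sets was not tested. A_52_P337899 fell as well (-1.21, adjusted p = 1.06e-05), but A_52_P481493 rose (0.53, adjusted p = 0.0217). The 3 probes of Fkbp5 carry the same accession, and which part of the transcript each of them reads was not analysed here.

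**Figure D3:**
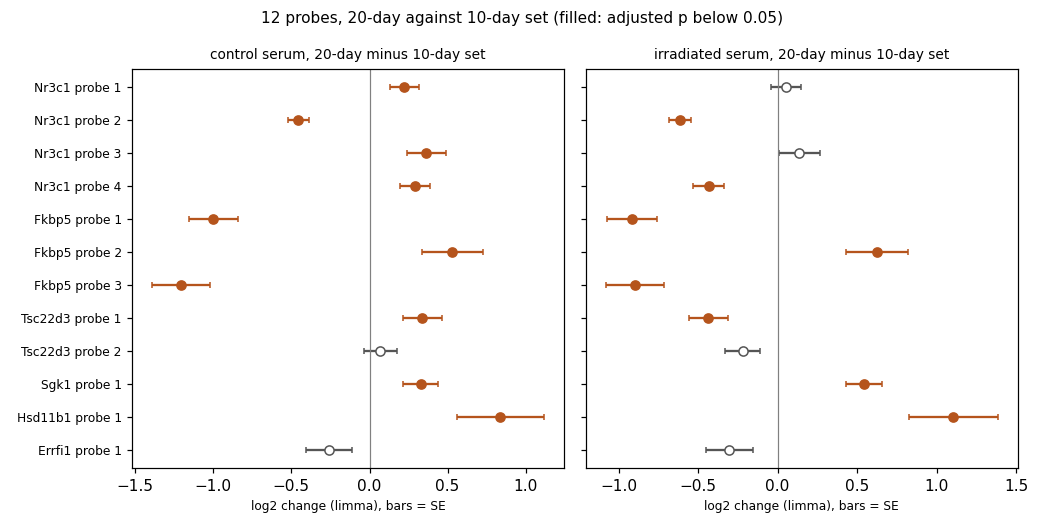
Log2 change of each of the 12 probes between the 20-day and the 10-day set (horizontal axis, with the standard error of the limma fit; 5 arrays per group), control serum on the left and irradiated serum on the right, with filled points for an adjusted p below 0.05. Fkbp5 probes 1 and 3 lie far to the left and Fkbp5 probe 2 (A_52_P481493) to the right of 0 in both panels.

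Tsc22d3 encodes the glucocorticoid-induced leucine zipper, an anti-inflammatory target. By the brighter probe (A_51_P235821) its level with control serum of the 10-day set was 2.36, 2.20, 2.12, 2.39 and 2.01. The 4 Gy arrays had 2.54, 2.21, 2.15, 2.08 and 2.09. The ranges overlapped, and the log2 change was -0.00 (SE 0.12, 95% interval -0.26 to 0.26; limma, adjusted p = 0.997).

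The control arrays of the 20-day set had Tsc22d3 at 2.98, 2.55, 2.38, 2.64 and 2.21. The 8 Gy arrays had 1.83, 1.91, 1.63, 1.84 and 1.68. By the brighter probe all 5 arrays of 8 Gy serum lay below every other array of the study. The log2 change was -0.77 (SE 0.12, adjusted p = 7.20e-05), and Tsc22d3 was the 1 member gene whose response differed between the sets (difference -0.77, SE 0.18, limma adjusted p = 0.00269), where 34.2% of all genes tested passed the same test. Both calls held with slide as a random block (adjusted p = 0.00375 and 0.0170). No slide held both 20-day groups, so serum and slide cannot be told apart here either. The dimmer probe A_52_P600518 fell less (-0.27, adjusted p = 0.0470 in the fit over all probes), and its 8 Gy and control arrays overlapped. Its response did not pass the test of a difference between the sets (-0.29, adjusted p = 0.147).

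The groups of Tsc22d3 ranked control serum of the 20-day set, then both 10-day groups, then 8 Gy serum. With control serum it was 0.34 higher in the 20-day set (adjusted p = 0.0236) and with irradiated serum it was lower in the 20-day set (-0.44, adjusted p = 0.00594). The first of these did not hold after quantile normalisation (0.08) or cyclic loess (0.11), nor with slide as a random block (adjusted p = 0.0752), nor without control array 3 or 5 of the 10-day set or control array 1 of the 20-day set (adjusted p 0.0522, 0.0648 and 0.0748).

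Sgk1, a kinase that acts on ion channels and cell survival, had the level 3.30, 3.40, 3.34, 3.33 and 3.29 with control serum of the 10-day set. With 4 Gy serum it was 3.17, 3.12, 3.03, 2.97 and 3.29. The change of -0.21 (SE 0.11, 95% interval -0.45 to 0.02) did not pass (limma, adjusted p = 0.280), although 4 of the 5 4 Gy arrays lay below all control arrays.

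In the 20-day set Sgk1 was 3.85, 3.36, 3.87, 3.45 and 3.75 with control serum. With 8 Gy serum it was 3.99, 3.47, 3.48, 3.79 and 3.56. The groups covered the same range (log2 change 0.00, 95% interval -0.24 to 0.24; limma, adjusted p = 0.993). Between the sets Sgk1 was 0.33 higher with control serum (adjusted p = 0.0158) and 0.54 higher with irradiated serum (adjusted p = 0.000462). The first of these depended on the scaling: it was -0.033 after quantile normalisation, -0.0036 after cyclic loess and -0.12 after normexp correction. Sgk1 passed the test with neither irradiated serum. Its levels ranked 8 Gy serum, control serum of the 20-day set, control serum of the 10-day set and 4 Gy serum.

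Errfi1, an inhibitor of the EGF receptor, passed no test. Its level was 3.65, 3.95, 3.72, 3.86 and 3.85 with control serum of the 10-day set and 3.76, 3.61, 3.59, 3.70 and 4.01 with 4 Gy serum. In the 20-day set it was 4.13, 3.40, 3.73, 3.10 and 3.35 with control serum and 3.56, 3.19, 3.31, 3.62 and 3.47 with 8 Gy serum. The groups overlapped in each comparison made. From the highest mean down, the groups ranked control serum of the 10-day set (3.80), 4 Gy serum (3.74), control serum of the 20-day set (3.54) and 8 Gy serum (3.43). The changes were -0.07 with 4 Gy serum (95% interval -0.38 to 0.24) and -0.11 with 8 Gy serum (-0.42 to 0.20). After quantile normalisation it was called lower in the 20-day set with control (-0.61, adjusted p = 0.00115) and irradiated serum (-0.46, adjusted p = 0.0117).

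Hsd11b1, which regenerates active hormone inside the cell, had an SD of up to 0.68 between arrays of 1 group. Its level was -2.51, -2.61, -2.43, -3.15 and -1.29 with control serum of the 10-day set. With 4 Gy serum it was -2.42, -2.42, -2.34, -1.85 and -1.95. The highest control array is the 1 on slide 2, and within that slide the 4 Gy arrays lay lower (difference -1.13), against 0.20 (SE 0.28) over all arrays, which did not pass (limma, adjusted p = 0.739).

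The level of Hsd11b1 was -0.96, -1.28, -1.59, -2.48 and -1.50 with control serum of the 20-day set. With 8 Gy serum it was -1.44, -1.09, -1.01, -1.00 and -0.93. The groups overlapped, and the change of 0.47 (SE 0.28, 95% interval -0.12 to 1.06) did not pass (limma, adjusted p = 0.184). Between the sets Hsd11b1 was 0.84 higher with control serum (adjusted p = 0.0137; 0.245 with slide as a random block) and 1.10 higher with irradiated serum (adjusted p = 0.00251), where the groups did not overlap. The order of the group means was 8 Gy serum (-1.09), control serum of the 20-day set (-1.56), 4 Gy serum (-2.20) and control serum of the 10-day set (-2.40).

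Between the control groups of the sets 5 of the 6 genes passed the test (4 higher, 1 lower), beside 66.4% of all genes tested, and between the irradiated groups 4 of 6 did (2 higher, 2 lower), beside 58.0% (29.2% higher, 28.8% lower). Of the 12 probes 10 passed between the control groups and 8 between the irradiated groups, beside 67.8% and 57.1% of all probes tested. Groups that did not overlap were counted for 2 of the 6 genes with 8 Gy serum (28.1% of all genes), for 0 with 4 Gy serum (7.89%), for 2 between the control groups (49.4%) and for 4 between the irradiated groups (51.6%). With slide as a random block, Fkbp5 was the 1 member that passed between the control groups. The members' median log2 change was -0.03 with 4 Gy serum and -0.05 with 8 Gy serum, beside 0.01 and -0.09 over all genes tested.

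The genes most like each member over the 20 arrays were ranked by Pearson's r among 12904 named genes, as a description that also reflects the difference between the sets. Fkbp5 was most like Per1, a clock gene with a known glucocorticoid response (r = 0.956; 0.890 after the group means were taken out), then Crispld2 (0.951; 0.794) and Pgf (0.949; 0.711). Crispld2 is also a glucocorticoid-induced gene. Nr3c1 was most like Fbxo28 (0.954), Rsrc1 (0.938) and Pigs (0.933), and Tsc22d3 was most like Psip1 (0.913), Dip2c (0.897) and Lrch2 (0.892). For Hsd11b1 the closest were Chil1 (0.916), Hp (0.909) and Lum (0.908), for Sgk1 Plaur (0.901), Hps6 (0.870) and P2ry2 (0.869), and for Errfi1 Nol6 (0.874), Hipk4 (0.867) and Mtor (0.864). Among the members themselves, with group means taken out, Fkbp5 and Tsc22d3 went together most (0.758), then Sgk1 and Errfi1 (0.704). The arrays of a group share slides, and these values carry no test.

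**Figure D4:**
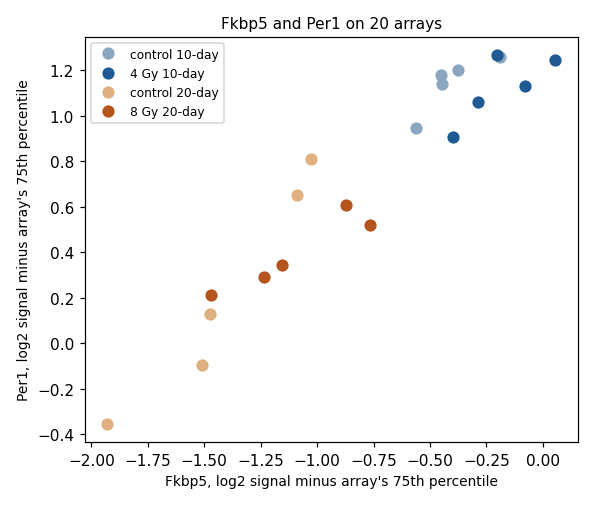
Level of Fkbp5 (horizontal) and Per1 (vertical) on the 20 arrays, both as log2 signal minus the array's 75th percentile, coloured by serum group. The 10-day arrays lie together at the upper right, and within the 20-day control arrays both genes span a wide range, Fkbp5 from -1.93 to -1.03 and Per1 from -0.35 to 0.81.

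Other genes that glucocorticoids induce did not move one way with irradiated serum. Of 36 tested, 2 rose and 0 fell with 4 Gy serum, while 4.67% of all genes rose and 1.37% fell. They were Tat, a liver enzyme of tyrosine breakdown that is a textbook target (1.07, adjusted p = 0.0345), and the metallothionein Mt1 (0.57, adjusted p = 0.0499). With 8 Gy serum 7 rose and 4 fell, while 17.5% of all genes rose and 28.4% fell. The transcription factor Klf9 rose (0.81, SE 0.11, limma adjusted p = 9.41e-06), as did the selenoprotein Gpx3 (0.66, adjusted p = 0.000135) and the AMP deaminase Ampd3 (0.42, adjusted p = 0.00203), and the phosphatase Dusp1 fell (-0.75, SE 0.11, adjusted p = 2.43e-05). The split depended on the scaling, with 4 higher and 8 lower scaled to the array median and 13 higher and 2 lower after cyclic loess, and the median change of all genes lay at -0.23 under the first of these against -0.09. With slide as a random block 4 rose and 2 fell with 8 Gy serum, and 0 passed with 4 Gy serum.

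Klf9 had levels between 0.29 and 0.75 with 8 Gy serum and between -0.54 and -0.06 with control serum of the 20-day set, without overlap. Dusp1 lay between 1.54 and 2.00 with 8 Gy serum and between 2.35 and 2.89 with its control, again without overlap. The second probe of Klf9 was at 0.07 with 8 Gy serum (adjusted p = 0.622), so that its probes disagreed. The stress gene Ddit4 fell (-0.37, adjusted p = 0.0196) but not after quantile normalisation (-0.13) or cyclic loess (-0.10). Per1 (0.17, adjusted p = 0.433) and the RNA-decay factor Zfp36 (-0.19, adjusted p = 0.280) did not pass with 8 Gy serum. In the 10-day set none of these 5 passed: the changes were -0.11 for Klf9, -0.21 for Dusp1, -0.19 for Ddit4, -0.02 for Per1 and -0.21 for Zfp36. Crispld2 lay between -1.08 and -0.69 with 8 Gy serum and between -1.93 and -0.89 with control serum of the 20-day set, and these ranges overlapped.

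**Figure D5:**
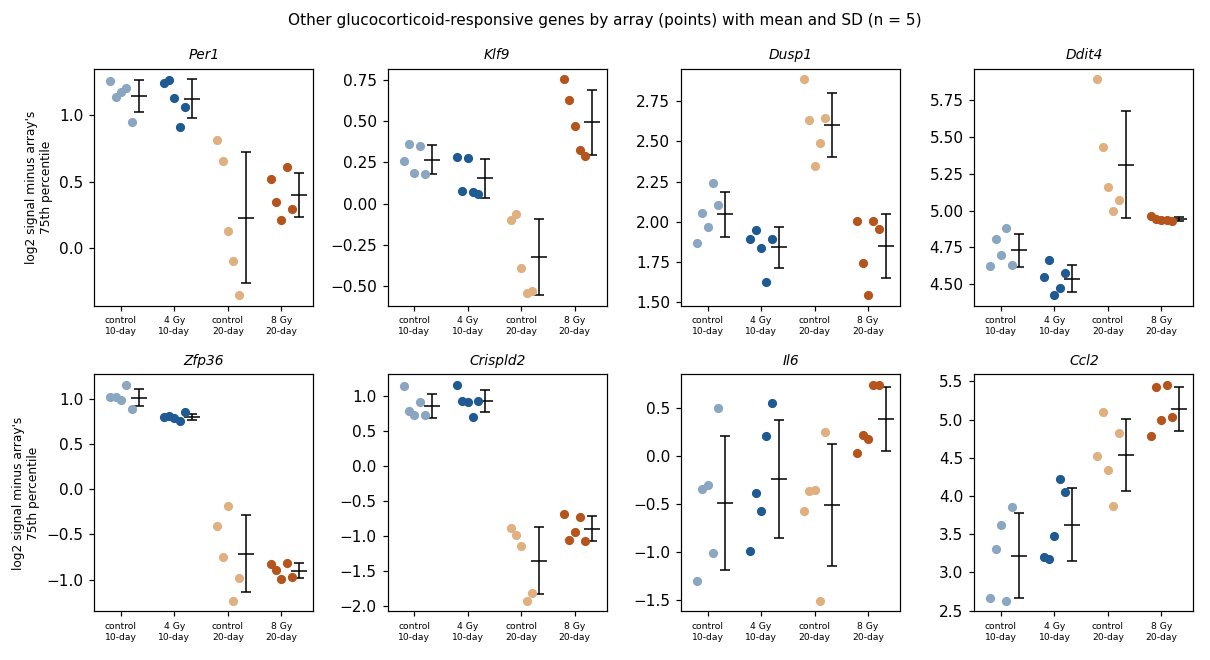
Level of 8 further glucocorticoid-responsive genes on each array (points; log2 signal minus the array's 75th percentile, a separate vertical scale per gene) in the 4 serum groups, with the mean and SD of 5 arrays. Klf9 is higher and Dusp1 lower with 8 Gy serum than with its control without overlap, and Per1, Zfp36 and Crispld2 are lower on all 20-day than on all 10-day arrays.

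Between the control groups of the sets the induced genes also split, 13 higher and 11 lower of 36 in the 20-day set, beside 36.9% and 29.5% of all genes. Crispld2 fell (-2.21, adjusted p = 1.50e-09), as did Zfp36 (-1.73, adjusted p = 1.99e-09), Per1 (-0.92, adjusted p = 8.80e-05) and Klf9 (-0.59, adjusted p = 8.83e-05), the last not after normexp correction (-0.27, adjusted p = 0.0501) and with its second probe at 0.21 (adjusted p = 0.0920). Plin2, a coat protein of lipid droplets that macrophages and adipocytes hold, was higher (1.91, adjusted p = 2.83e-14), with Dusp1 at 0.56 and Ddit4 at 0.58 in the same direction. Those last changes did not hold after normexp correction for Dusp1 (0.15) or after quantile normalisation for Ddit4 (0.15). After quantile normalisation 12 were higher and 14 lower. Beside the macrophage markers, adipocyte markers were higher in the 20-day control cultures (8 of 11 tested higher, 1 lower), with Adipoq at least 19.7-fold higher, as it was not well above background on any 10-day array. The part of these cells in the values was not tested.

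The chaperones and coregulators of the receptor were tested next, 24 genes. With 8 Gy serum 4 rose and 9 fell, while 17.5% of all genes rose and 28.4% fell, and these shares lie near those of the list. Ppid, a cyclophilin of the receptor complex, fell (-1.00, SE 0.075, limma adjusted p = 2.14e-08), and its second probe fell too (-0.65, adjusted p = 2.21e-06). The mediator subunits Med1 (-0.52, adjusted p = 6.65e-05) and Med14 (-0.50, adjusted p = 5.90e-05) fell by the brightest probe, but the other probes of Med1 were at 0.12 and -0.07 and those of Med14 at -0.10 and 0.05. Stip1, which carries clients between heat shock chaperones, was higher (0.34, adjusted p = 9.17e-05), though not after normexp correction (0.13, adjusted p = 0.250). After cyclic loess 8 rose and 6 fell, so the split depended on the scaling.

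In the 10-day set Med1 (-0.33, adjusted p = 0.0246) and Med14 (-0.30, adjusted p = 0.0313) were the 2 of 24 that passed, both lower, as were 1.37% of all genes. The other probes of Med1 were at -0.58 (adjusted p = 0.0123) and 0.03 (adjusted p = 0.917) and those of Med14 at 0.08 and -0.11, and 0 genes of the list passed with slide as a random block. Between the control groups 9 were higher and 13 lower in the 20-day set, beside 36.9% and 29.5% of all genes, and the split depended on the scaling: it was 2 and 13 after quantile normalisation, 3 and 12 after cyclic loess and 9 and 9 scaled to the array median. Ppid was 1.25 higher (adjusted p = 4.13e-11), the acetyltransferase Crebbp was lower (-1.40, adjusted p = 2.16e-08; well above background on 3 of 5 control arrays of the 20-day set), and the corepressor Nrip1 (-0.93) and the coactivator Ncoa1 (-0.60) were lower as well. Ppid thus moved opposite ways with the set and with 8 Gy serum, and with irradiated serum it was 0.25 higher in the 20-day set (adjusted p = 0.00914). Between the irradiated groups 5 were higher and 10 lower (2 and 13 after quantile normalisation), beside 29.2% and 28.8% of all genes.

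Of 19 tested inflammatory genes that glucocorticoids hold down, 6 rose and 1 fell with 8 Gy serum, while 17.5% of all genes rose and 28.4% fell, and their median log2 change was 0.60 beside -0.09 over all genes. The adhesion molecule Icam1 rose (1.08, SE 0.21, limma adjusted p = 0.000481), as did the bradykinin receptor Bdkrb1 (0.87, adjusted p = 0.00162) and the collagenase Mmp13 (1.53, adjusted p = 0.00205). The cytokine Il6 rose (0.89, adjusted p = 0.0434) but did not pass scaled to the array median (adjusted p = 0.0684), and the chemokine Ccl2 was at 0.60 (adjusted p = 0.0779). The interferon factor Irf1 fell by its brightest probe (-0.26, adjusted p = 0.0140), while its other probe rose (0.77, adjusted p = 8.18e-06). With slide as a random block 3 rose and 0 fell, scaled to the array median 4 rose and 2 fell, and after quantile normalisation 9 rose and 0 fell.

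Icam1 lay between -1.74 and -0.76 with 8 Gy serum and between -2.96 and -1.66 with control serum of the 20-day set, and these ranges overlapped. Mmp13 lay between -0.96 and 0.10 with 8 Gy serum and between -2.77 and -0.98 with its control, without overlap. In the 10-day set Bdkrb1 was the 1 of 19 that passed (0.77, adjusted p = 0.0286; 0.736 with slide as a random block), where 4.67% of all genes rose, and Il6 (0.25) and Ccl2 (0.41) did not. Of the 22 macrophage markers, 0 rose and 5 fell with 8 Gy serum, with a summed level of 6.91 to 7.46 with control and 7.03 to 7.30 with 8 Gy serum. That count depended on the scaling, with 5 higher and 4 lower after quantile normalisation and 2 higher and 4 lower after cyclic loess, and their part in these changes was not tested. Between the control groups 9 of the 19 were higher and 2 lower in the 20-day set (6 and 2 after quantile normalisation), beside 36.9% and 29.5% of all genes. They include Mmp9 (4.31 higher, adjusted p = 6.61e-08), Ccl2 (1.32, adjusted p = 0.000319) and Tnf, which was not well above background on any 10-day array and was at least 7.74-fold higher.

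Other steroid receptors and genes of steroid handling gave 18 tested. None passed with 4 Gy serum, and with 8 Gy serum 4 rose and 2 fell, beside 17.5% and 28.4% of all genes. The balance turned with the scaling, with 3 higher and 4 lower scaled to the array median and 6 higher and 2 lower after quantile normalisation. Star, which brings cholesterol into mitochondria for steroid synthesis (0.77, adjusted p = 0.000119), and Cyp11a1, the enzyme that makes pregnenolone from it (0.75, adjusted p = 0.000368), rose, and so did the second probe of each (0.93 and 0.51). The drug and steroid exporter Abcb1b fell by its brightest probe (-0.42, adjusted p = 0.00101). Its other probes were at -0.0022 (adjusted p = 0.980) and 0.29 (adjusted p = 0.119). Between the control groups 7 were higher and 5 lower in the 20-day set (6 and 7 after quantile normalisation, 5 and 7 after cyclic loess), beside 36.9% and 29.5% of all genes, with the steroid reductase Akr1c18 higher (2.90, adjusted p = 7.93e-08) and Cyp11a1 lower (-1.52, adjusted p = 2.37e-08).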

How the data were processed

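Each sample's RNA was read on 1 Agilent one-colour array (Cy3). The deposited scanner files give a processed intensity per spot, extracted with Agilent Feature Extraction 10.5.1.1 per the file headers (the submitters' processing notes name version 11.0), and quality marks of another kind (0 or 1). The authors' deposited table of log2 values, centred within each set, correlated with the recomputed values at r of at least 0.995 and served as an alternative within a set.

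Non-uniform spots and population outliers, 50 to 181 on an array, were dropped, spots of a probe averaged, and the array's 75th percentile of log2 processed intensity subtracted. Accessions were matched to RefSeq symbols (GRCm38.p6), naming 24844 of 41174 probes. Testing took probes that stood well above background on every array of some group (26227 probes, 20220 genes). Of these genes 12905 were named, and the rest were single probes without a symbol, each counted as a gene. The fit was limma 3.58.1 (lmFit, eBayes, two-sided) in R 4.3.3, with steps tested on simulated data. A gene not well above background on any array of a group is given as "at least" a fold: the bright group's mean against the higher of the dim probe's own level and the lowest level well above background on each array. The number of arrays limits precision.

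The members and the lists (chaperones and coregulators, induced genes, repressed inflammatory genes, steroid handling, and markers of fibroblasts, macrophages, endothelium, epithelium, lymphoid cells and adipocytes) were chosen with earlier results of these data known. Named from each list were up to 4 genes past the threshold with the smallest p per comparison, plus Per1, Klf9, Dusp1, Ddit4, Zfp36, Il6 and Ccl2. Not every gene the rule takes is printed. Crispld2 with 8 Gy serum and the second probes were added after values were seen. Replicate numbers were checked for pairing. Deviations of same-numbered arrays correlated at 0.14 to 0.41 in the 20-day set and at -0.05 to 0.18 in the 10-day set. In both sets only replicates 1 and 5 matched their own number best, so pairing was not established. The main fit was unpaired, and replicate number as a block was an alternative. Alternatives were other scalings, background correction, filters, blocks, probes, and arrays or slides left out.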

Additional observations from a re-analysis of the deposited data

Results flagged for a closer look

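Dixon's test, run on 48 groups of 5 arrays (12 probes in 4 groups), marked 3 arrays as far from the others of their group; chance marks about 1 in 20 groups. The brightest Nr3c1 probe (A_52_P138090) had a level of 2.18 on the fifth array of 8 Gy serum, and the nearest other array was at 2.10. The Nr3c1 probe A_52_P254174 was at -1.61 on the first control array of the 20-day set, and the nearest was at -2.34. Tsc22d3 (A_51_P235821) was at 2.54 on the first array of 4 Gy serum, and the nearest was at 2.21.

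The responses to irradiated serum differed between the sets, by limma's test of the difference itself, for Tsc22d3 (-0.77, 20-day minus 10-day response) and for the Nr3c1 probe A_51_P355693 (-0.72). In both cases the transcript was lower with 8 Gy serum and did not pass the test with 4 Gy serum. Dose and days differ together between the sets and cannot be told apart.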

How the results depend on the processing

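Over the 6 genes and 5 comparisons, 257 values under another setting kept direction and side of the threshold, 11 newly passed, 9 no longer passed and 23 changed sign. With 1 array or slide left out 340 were kept, 5 newly passed, 10 no longer passed and 23 changed sign. With another probe 16 were kept, 2 newly passed, 3 no longer passed and 9 changed sign. With 4 Gy serum, 1 gene (Nr3c1) passed in place of 0 scaled to the array median, after quantile normalisation, with replicate number as a block (adjusted p = 0.0471) and without slide 2 (without single arrays, 0 to 1). The replicate block changed no other call of a member. For the difference between responses 2 passed in place of 1 after quantile normalisation, after normexp correction and with the mean over a gene's probes. Between the control groups 3 passed in place of 5 after quantile normalisation, after cyclic loess and with the mean over probes, 1 with slide as a random block, and 3 to 5 without single arrays. Where the reported or the other value passed the test, the sign changed for Nr3c1 between the control groups to -0.031 (quantile), -0.012 (cyclic loess) and -0.46 (probe A_52_P63106), and between the irradiated groups to -0.21 (mean over probes), -0.43 (A_51_P355693) and -0.61 (A_52_P63106). For Sgk1 between the control groups the values were -0.033 (quantile), -0.0036 (cyclic loess) and -0.12 (normexp), and for Fkbp5 0.53 and 0.63 (A_52_P481493, control and irradiated groups). Where neither passed, the sign changed as follows. With 4 Gy serum Tsc22d3 was 0.00092 (quantile), 0.014 (cyclic loess and normexp), 0.12 (slide as a random block), 0.36 (slide as a fixed block), 0.0099 (mean over probes), 0.20 and 0.16 (without slides 1 and 3), 0.021 (A_52_P600518) and -0.082 to 0.042 without single arrays. Hsd11b1 was -0.26 and -1.13 with slide as a random and a fixed block, -0.91 and -0.022 without slides 1 and 3. Nr3c1 was 0.089 (A_51_P355693) and Fkbp5 -0.26 (A_52_P481493). With 8 Gy serum Fkbp5 was -0.16 (A_52_P481493), Sgk1 -0.14 (array median) and -0.083 to 0.055 without single arrays, and Errfi1 0.11 (quantile), 0.098 (cyclic loess) and -0.22 to 0.036 without single arrays. The difference between responses was 0.0012 for Nr3c1 (quantile), and for Errfi1 0.15 (quantile), 0.14 (cyclic loess), 0.026 (slide as a random block) and -0.15 to 0.10 without single arrays, with -0.049 to 0.18 for Fkbp5 and -0.010 to 0.46 for Hsd11b1. Nr3c1 between the irradiated groups was -0.030 (quantile), -0.050 (cyclic loess) and -0.012 to 0.14 without single arrays. The cause was not tested.

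Over all genes the 4 Gy count of 1221 was 795 with probes well above background on all 20 arrays, 2609 with 10 arrays in the fit, 2573 in the authors' deposited table, 20 with slide as a fixed block, 1 with slide as a random block, 13, 3784 and 0 without slides 1, 2 and 3, and 264 to 2127 without single arrays. With slide as a random block the count with 8 Gy serum was 5899 in place of 9280 and that of the difference 3658 in place of 6917. Slides 1 to 3 were left out after seeing the data. Without slide 2 no slide held both 10-day groups, so serum and slide cannot be told apart in that count.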

Other observations

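The remaining marker lists describe the cultures in which the receptor genes were read. Between the control groups 36.9% of all genes tested were higher and 29.5% lower in the 20-day set. Of 12 endothelial markers 8 were tested: 3 were higher and 4 lower in the 20-day than in the 10-day control cultures, and Cdh5, the cadherin of endothelial junctions, was at least 2.17-fold lower, as it was not well above background on any 20-day array. Of 12 epithelial markers 8 were tested, 4 higher and 2 lower, with a median log2 change of 0.27. Against that median the epithelial cadherin Cdh1 was at least 3.53-fold lower, as it was not well above background on any 20-day array. Of 12 lymphoid markers 2 were tested and 0 passed between the control groups. Of the 20 fibroblast markers 3 were higher and 14 lower in the 20-day control cultures, with the matrix protein Fn1 at -2.61.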
